A study of Mus musculus with 6 samples.

Results

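The brown and beige adipocyte genes are 42 names listed as markers and regulators of thermogenic fat cells. The list was drawn up with earlier results of these data known, so its counts beside those of all genes are descriptive. They were looked up by gene symbol in the table of all genes, where 36 of the 42 were found among 16619 genes. All 36 passed the filter on low values (at least 0.5 CPM in at least 3 libraries), which 16109 genes passed. *Gyk* is an older name of *Gk* and was counted once, under *Gk*. *Cpt1b*, *Esrrb*, *Zic1*, *Lhx8* and *Gatm* were not analysed here.

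The comparison was of 2 genotypes in epididymal white adipose tissue (eWAT), a visceral depot around the gonads, of 6-month-old female mice. Prmt5AKO mice, the Prmt5 knockout (KO) of the labels, carry *Adipoq*-Cre and 2 floxed *Prmt5* alleles (*Prmt5* flox/flox), and WT mice carry the same floxed alleles without Cre. *Adipoq*-Cre acts in adipocytes, brown and beige ones included, and leaves *Prmt5* intact in the other cells of the depot. There were 3 libraries per genotype, and no source states whether they came from separate mice, so p-values measure the spread between these libraries, which may be technical.

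Brown and beige adipocytes burn fatty acids for heat. Adrenergic signals release fatty acids from lipid droplets, mitochondria oxidise them, and uncoupling protein 1, encoded by *Ucp1*, lets protons return across the inner mitochondrial membrane without making ATP. Beige cells arise within white depots, where visceral fat of the mouse normally holds few of them.

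Values are CPM, reads scaled to an effective library size. The reads recovered from them summed to between 18731215 and 24636063 in Prmt5AKO libraries and between 21999576 and 27445096 in WT libraries, so that 1 read was worth 0.0356 to 0.0472 CPM. *Prmt5* itself was at 14.6, 22.0 and 28.5 CPM in Prmt5AKO replicates 1 to 3 and at 36.6, 59.7 and 39.7 CPM in WT replicates 1 to 3, with no overlap (exact two-sided permutation test, p = 0.1, the smallest that 3 against 3 allow). Along principal component 1 (64.5% of the variance), Prmt5AKO replicate 1 (53.3) lay between WT replicate 1 (74.6) and WT replicate 3 (40.2), away from Prmt5AKO replicates 2 (-61.0) and 3 (-81.0) and from WT replicate 2 (-26.1). The tissue label was borne out by *Adipoq*, the adipocyte hormone adiponectin, at 3194 to 5420 CPM in Prmt5AKO and 3352 to 4234 CPM in WT. All 20 mature adipocyte markers were detected, and their summed level was 56684 to 70937 CPM in Prmt5AKO and 73357 to 82496 CPM in WT. The sum is weighted to the most abundant genes. Of the 20, 8 had positive log2 fold changes (median -0.13), with 1 higher and 2 lower at an unadjusted limma p under 0.05. The 1 higher was *Cidea*, which is also a member. In bulk tissue, fewer cells of a type and less RNA per cell cannot be told apart.

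Fold changes are Prmt5AKO over WT on the log2(CPM + 0.5) scale, from limma, with p-values adjusted by Benjamini-Hochberg over all 16109 genes. A call required both an adjusted p below 0.05 and an absolute log2 difference above 0.5. Limma called 0 of the 36 members and 0 of 16109 genes (0% in the background), and edgeR's quasi-likelihood test on the recovered reads also called 0 of each. At an unadjusted p under 0.05, limma found 12 members, against 8.72% of all genes, and edgeR's quasi-likelihood test 12, against 8.36% of all genes.

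All 12 of limma's had higher values in Prmt5AKO eWAT, against 4.79% of all genes that were higher at that level. They were *Kcnk3*, *S100b*, *Cidea*, *Letmd1*, *Cox7a1*, *Elovl3*, *Acot11*, *Esrra*, *Cox8b*, *Otop1*, *Ucp1* and *Ckb*. No member was lower at that level, against 3.93% of all genes. In 10 members every Prmt5AKO library lay above every WT library, against 8.16% of all genes, and in 2 members every Prmt5AKO library lay below, against 6.28%, which makes 14.4% of all genes in either direction. Without Prmt5AKO replicate 1, 20 members did not overlap, but nor did 56.8% of all genes. The median log2 fold change was 0.62 over the 36 members, 27 of them positive, and -0.03 over all genes, of which 48.1% were positive. The median was 0.34 without Prmt5AKO replicate 1 and 0.31 without WT replicate 2. DESeq2 called 6 members, all higher (*Kcnk3*, *S100b*, *Cidea*, *Letmd1*, *Cox7a1* and *Acot11*), and none lower, against 1.20% of all genes called higher and 0.670% lower (1.87% in all). The likelihood ratio test of edgeR called *Kcnk3*, *S100b* and *Cidea*, and none lower, against 0.677% of all genes called higher and 0.329% lower (1.01% in all).

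**Figure D1:**
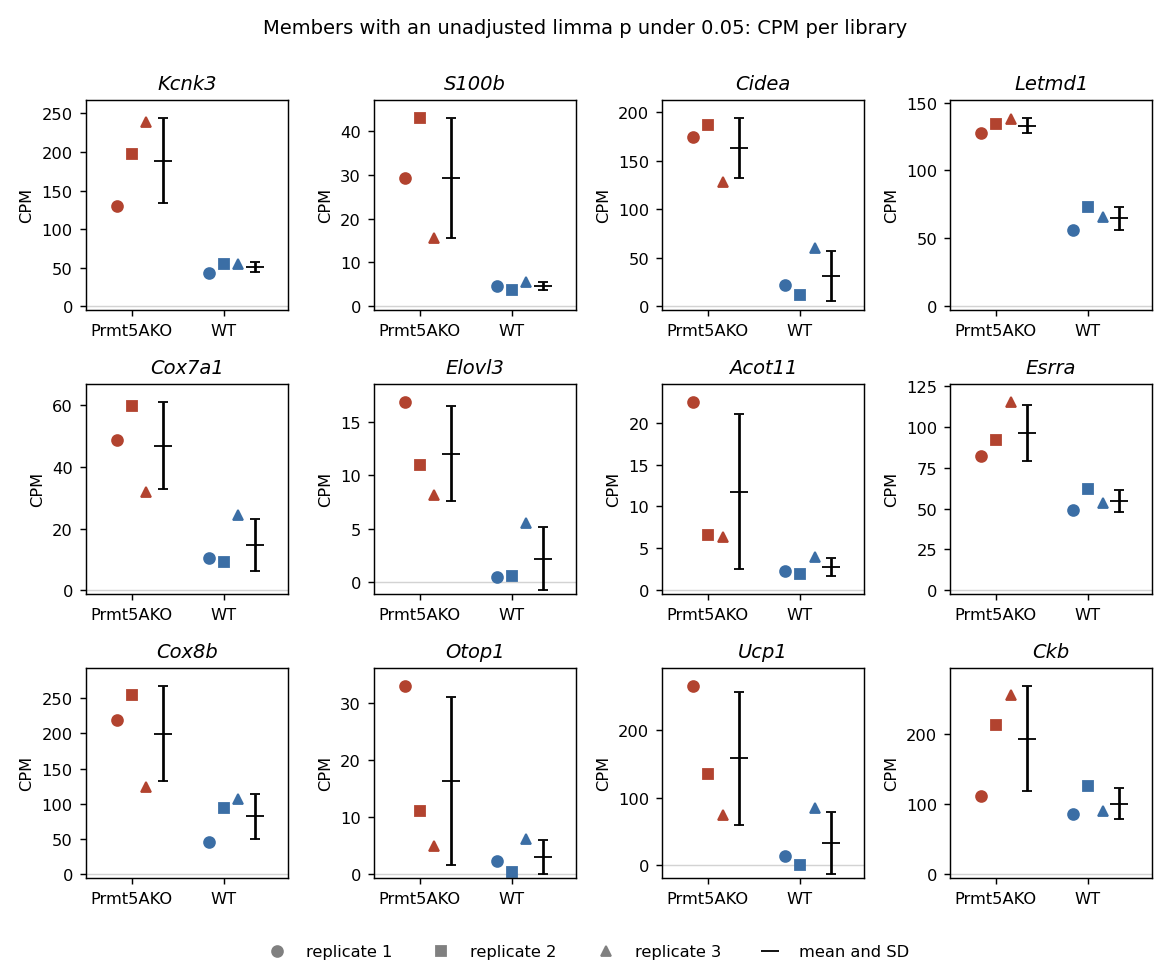
CPM (vertical axis, linear) in each library for the 12 members with an unadjusted limma p under 0.05, Prmt5AKO in red and WT in blue, with the mean and SD of 3 libraries in black; a bar below 0 is an SD larger than the mean. In 9 of the 12 panels the genotypes do not overlap, while in *Otop1*, *Ucp1* and *Ckb* the lowest Prmt5AKO library lies below the highest WT library.

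The uncoupling proteins carry protons or metabolites across the inner mitochondrial membrane, and only UCP1 is the thermogenic uncoupler. The *Ucp1* gene spans 83290352 to 83298452 of chromosome 8 (GRCm38, plus strand). It was at 265, 135 and 73.9 CPM in Prmt5AKO replicates 1 to 3 and at 14.2, 0.265 and 84.8 CPM in WT replicates 1 to 3. Prmt5AKO replicate 3 thus lay below WT replicate 3, and WT replicate 2 held 7 reads of *Ucp1* where WT replicate 3 held 2383. The means were 158 ± 97.8 CPM in Prmt5AKO and 33.1 ± 45.3 CPM in WT (SD, n = 3 each), a ratio of 4.77. The log2 fold change was larger, 3.81 (standard error 1.46, limma adjusted p = 0.517), as the mean of logs weighs the low WT library heavily, and it was 1.97 without WT replicate 2. *Ucp2*, which is widely expressed, also in macrophages, was at 339, 581 and 789 CPM in Prmt5AKO and at 249, 529 and 326 CPM in WT, with overlap. *Ucp3*, the isoform of muscle and brown fat, was at 37.9, 12.3 and 15.5 CPM in Prmt5AKO and at 43.6, 19.6 and 34.5 CPM in WT, also with overlap (log2 fold change -0.66, standard error 0.48). Levels were also divided by the length of all annotated exons of a gene merged, 1636 bases for *Ucp1* and 6989 for *Ucp2*. The mean level of *Ucp1* was then 96.5 CPM per kb in Prmt5AKO and 20.2 CPM per kb in WT. That of *Ucp2* was 81.5 and 52.6 CPM per kb. *Ucp1* was thus above *Ucp2* on this scale in Prmt5AKO replicate 1 (162 against 48.5 CPM per kb), about level in replicate 2 (82.2 against 83.2) and below it in replicate 3 (45.2 against 113). In WT it was below *Ucp2* in replicates 1 and 2 and above it in replicate 3 (51.8 against 46.6). This order rests on the merged lengths, which can exceed that of a transcript. In CPM, *Ucp2* was above *Ucp1* in every library.

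*Cox7a1* and *Cox8b* encode the subunits of cytochrome c oxidase that muscle and brown fat use in place of the ubiquitous *Cox7a2* and *Cox8a* products. *Cox7a1* (chromosome 7, 30184144 to 30186078, plus strand) was at 48.8, 59.7 and 31.9 CPM in Prmt5AKO and at 10.4, 9.12 and 24.5 CPM in WT. Every Prmt5AKO library lay above every WT library (means 46.8 ± 14.0 and 14.7 ± 8.52 CPM, log2 fold change 1.73, standard error 0.43, limma adjusted p = 0.336). *Cox8b* (chromosome 7, 140898945 to 140900446, minus strand) was at 219, 254 and 124 CPM in Prmt5AKO and at 45.8, 94.3 and 107 CPM in WT, again without overlap. Its means were 199 ± 67.3 CPM in Prmt5AKO and 82.3 ± 32.2 CPM in WT (log2 fold change 1.29, standard error 0.41, limma adjusted p = 0.436).

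Promoter sequence is shown for *Ucp1*, *Cox7a1*, *Cox8b* and *Letmd1*, 4 members described here as higher in Prmt5AKO eWAT, so that the stretch before each start can be compared. Each is the 250 bases before the start given by RefSeq on GRCm38.p6, on the strand of the gene. Capitals mark AGGTCA, the core that nuclear receptors such as the estrogen-related receptors and PPARs bind, and GGGCGG, the GC box, on either strand. The windows are chr8:83290098-83290347 (plus), chr7:30183921-30184170 (plus), chr7:140900447-140900696 (minus) and chr15:100468761-100469010 (plus).
Ucp1: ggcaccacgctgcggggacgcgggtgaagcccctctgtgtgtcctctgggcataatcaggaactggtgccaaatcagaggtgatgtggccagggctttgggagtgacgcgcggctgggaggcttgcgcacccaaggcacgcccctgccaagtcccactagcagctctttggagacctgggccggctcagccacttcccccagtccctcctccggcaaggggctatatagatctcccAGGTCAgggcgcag
Cox7a1: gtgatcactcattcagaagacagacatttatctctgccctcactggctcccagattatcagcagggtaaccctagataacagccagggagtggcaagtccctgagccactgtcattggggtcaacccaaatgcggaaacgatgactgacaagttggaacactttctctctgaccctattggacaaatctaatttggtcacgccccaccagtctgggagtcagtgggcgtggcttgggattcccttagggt
Cox8b: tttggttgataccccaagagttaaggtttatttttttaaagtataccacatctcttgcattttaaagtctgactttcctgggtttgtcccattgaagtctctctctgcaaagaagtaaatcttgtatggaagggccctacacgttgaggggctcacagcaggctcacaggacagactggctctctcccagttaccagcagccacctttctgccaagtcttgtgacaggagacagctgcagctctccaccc
Letmd1: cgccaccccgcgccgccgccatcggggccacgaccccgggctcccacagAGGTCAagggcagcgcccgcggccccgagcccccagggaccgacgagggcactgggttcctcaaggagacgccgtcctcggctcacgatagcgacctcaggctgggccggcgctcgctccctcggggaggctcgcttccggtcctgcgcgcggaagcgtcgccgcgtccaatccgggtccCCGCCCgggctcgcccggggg

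AGGTCA was in 7 of 40 such windows of the 30 member genes with a RefSeq window, among them *Ucp1* and *Letmd1*, and in 14.0% of all 32851 windows. The longer estrogen-related receptor element TCAAGGTCA, which contains AGGTCA, was in 0 of the 40 and in 0.387% of all. The cAMP response element TGACGTCA was in 1 of the 40, that of *Dio2*, and in 1.55% of all. GGGCGG was in 19 of the 40 and in 32.7% of all, and both strands were searched for each motif. The enhancer through which adrenergic signals act on *Ucp1* lies farther upstream, outside this window.

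The share of the muscle and brown fat isoform was taken within each library, so that it does not depend on the scaling of that library. It was computed per kb of exon, so its size rests on the merged lengths, which can exceed that of a transcript. *Cox7a1* made up 34.4%, 19.2% and 10.6% of *Cox7a1* plus *Cox7a2* in Prmt5AKO and 12.9%, 4.68% and 15.0% in WT. *Cox8b* made up 37.9%, 22.3% and 11.3% of *Cox8b* plus *Cox8a* in Prmt5AKO and 13.3%, 11.5% and 16.1% in WT. In both pairs Prmt5AKO replicates 1 and 2 had the highest shares and Prmt5AKO replicate 3 lay within the range of WT or below it, so the shares overlapped where the CPM did not. The ubiquitous partner *Cox7a2* was at 164, 442 and 473 CPM in Prmt5AKO and at 124, 328 and 245 CPM in WT, and *Cox8a* at 617, 1524 and 1669 CPM and at 514, 1243 and 955 CPM. Of the 15 cytochrome oxidase genes on a list of these isoforms and their partners, 14 had positive log2 fold changes (median 0.45), with *Cox7a1* and *Cox8b* the 2 at an unadjusted p under 0.05.

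**Figure D2:**
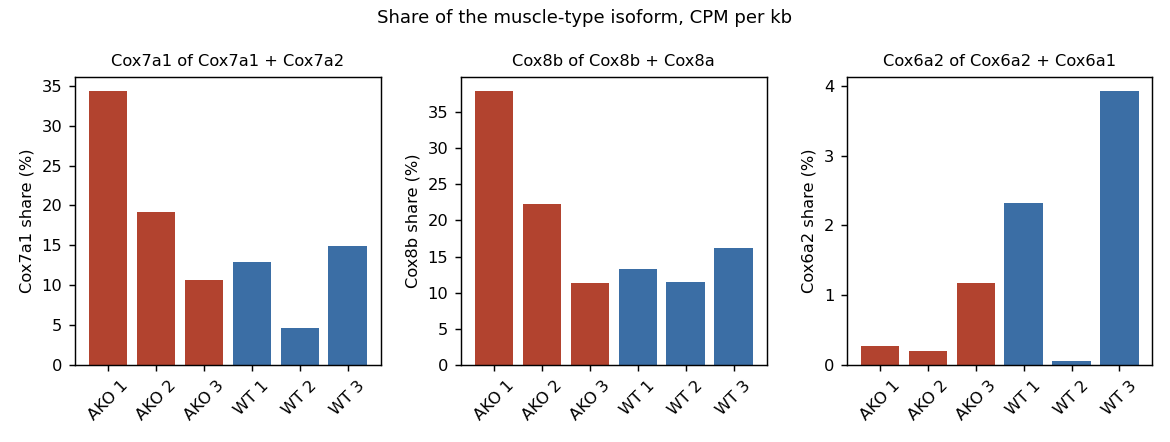
Share (vertical axis, %) of the muscle-type isoform in the sum of that isoform and its ubiquitous partner, from CPM per kb of exon, in each Prmt5AKO (AKO, red) and WT (blue) library. *Cox7a1* and *Cox8b* have their highest shares in Prmt5AKO replicate 1, at 34.4% and 37.9%, while the muscle isoform *Cox6a2* stays under 4% in every library and is highest in WT replicate 3.

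Muscle carries many of the same transcripts, and muscle markers differed strongly between libraries. The 19 skeletal muscle markers in the table summed to 505, 1206 and 2311 CPM in Prmt5AKO and to 1911, 224 and 3711 CPM in WT. The sum is weighted to the most abundant genes, and in Prmt5AKO replicate 2 most of it was *Acta1*. *Acta1* was at 254, 991 and 1170 CPM in Prmt5AKO and at 544, 137 and 948 CPM in WT. Its log2 fold change of 0.69 (standard error 0.81) was the highest of these markers, most of which had negative ones. *Ckm*, the muscle creatine kinase, was at 8.95, 10.1 and 110 CPM in Prmt5AKO and at 80.9, 0.265 and 188 CPM in WT. *Myh4*, a fast myosin heavy chain, was listed at 0 in WT replicate 2 and at 290 CPM in WT replicate 3. *Cox6a2*, the oxidase isoform of striated muscle, was at 1.62, 2.68 and 14.8 CPM in Prmt5AKO and at 10.9, 0.530 and 30.9 CPM in WT, high where the muscle markers were high. Within WT, *Cox7a1*, *Cidea* and *Ucp1* had the order of the muscle sum, lowest in replicate 2 and highest in replicate 3, while *Cox8b* was lowest in replicate 1 and highest in replicate 3. Across genotypes all 4 were higher in Prmt5AKO replicates 1 and 2 than in WT replicates 1 and 3, where the muscle sum was higher. The part of muscle RNA in these values was not tested. Of the muscle markers 3 of 19 had positive log2 fold changes (median -0.53) and none had an unadjusted p under 0.05. The 9 cardiac markers in the table summed to 22.9, 39.8 and 69.5 CPM in Prmt5AKO and to 19.9, 25.2 and 54.8 CPM in WT, and 7 of the 8 that passed the filter had positive log2 fold changes (median 0.80), none at an unadjusted p under 0.05.

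**Figure D3:**
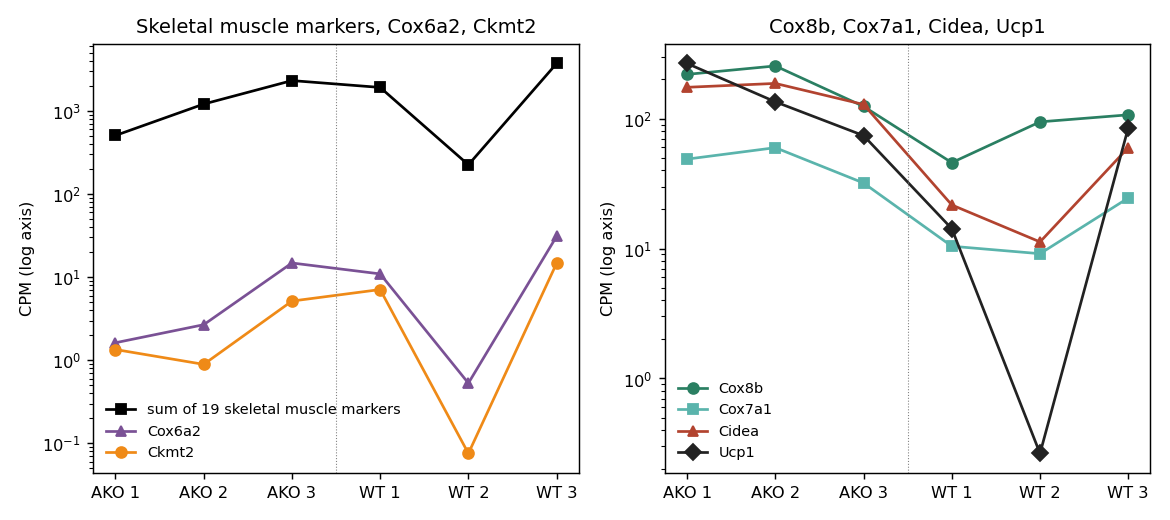
CPM (vertical axes, log scale) by library, Prmt5AKO (AKO) left of the dotted line and WT right of it: the left panel shows the summed skeletal muscle markers with *Cox6a2* and *Ckmt2*, the right panel *Cox8b*, *Cox7a1*, *Cidea* and *Ucp1*. The muscle sum is lowest in WT replicate 2 (224 CPM) and highest in WT replicate 3 (3711 CPM), and *Cox6a2* and *Ckmt2* have the same extremes. *Cidea* is at 128 CPM or more in each Prmt5AKO library and at 59.8 CPM or less in each WT library.

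Among genes of fatty acid handling, *Cidea*, *Elovl3* and *Acot11* were higher in every Prmt5AKO library. *Cidea*, a lipid droplet protein of brown adipocytes, was at 174, 186 and 128 CPM in Prmt5AKO and at 21.6, 11.2 and 59.8 CPM in WT. Its means were 163 ± 30.6 CPM and 30.9 ± 25.6 CPM (log2 fold change 2.69, standard error 0.54, limma adjusted p = 0.301; DESeq2 adjusted p = 0.0056). *Elovl3*, an elongase of very long chain fatty acids induced by cold in brown fat, was at 16.9, 10.97 and 8.17 CPM in Prmt5AKO and at 0.512, 0.568 and 5.59 CPM in WT. Its log2 fold change was 2.68 (standard error 0.70, limma adjusted p = 0.365). *Acot11*, an acyl-CoA thioesterase, was at 22.4, 6.60 and 6.33 CPM in Prmt5AKO and at 2.304, 2.01 and 3.99 CPM in WT (log2 fold change 1.71, standard error 0.53, limma adjusted p = 0.426). It shares exonic sequence with *Fam151a* on the opposite strand, and since no source used here says that counting used strand, reads of the pair cannot be told apart.

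The other members of this group had overlapping genotypes. *Fabp3*, the heart-type fatty acid binding protein, was at 47.6, 40.2 and 15.9 CPM in Prmt5AKO and at 15.0, 2.01 and 29.1 CPM in WT (log2 fold change 1.60, standard error 0.86). *Dio2*, the type II deiodinase that activates thyroid hormone within brown fat, was at 36.1, 5.26 and 3.54 CPM in Prmt5AKO and at 4.61, 1.06 and 14.1 CPM in WT. Its log2 fold change of 0.96 (standard error 1.00) was -0.015 without Prmt5AKO replicate 1. *Gk*, glycerol kinase, which lets fat cells reuse glycerol, was at 50.4, 7.31 and 4.96 CPM in Prmt5AKO and at 12.3, 4.92 and 18.9 CPM in WT. *Ppara*, a nuclear receptor that controls fatty acid oxidation, and *Pank1*, a pantothenate kinase of coenzyme A synthesis, had log2 fold changes of 0.43 and 0.40 (standard errors 0.58 and 0.60). In *Dio2*, *Gk*, *Ppara* and *Pank1* Prmt5AKO replicate 1 was the highest of the 6 libraries, and all 4 log2 fold changes were negative without it.

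**Figure D4:**
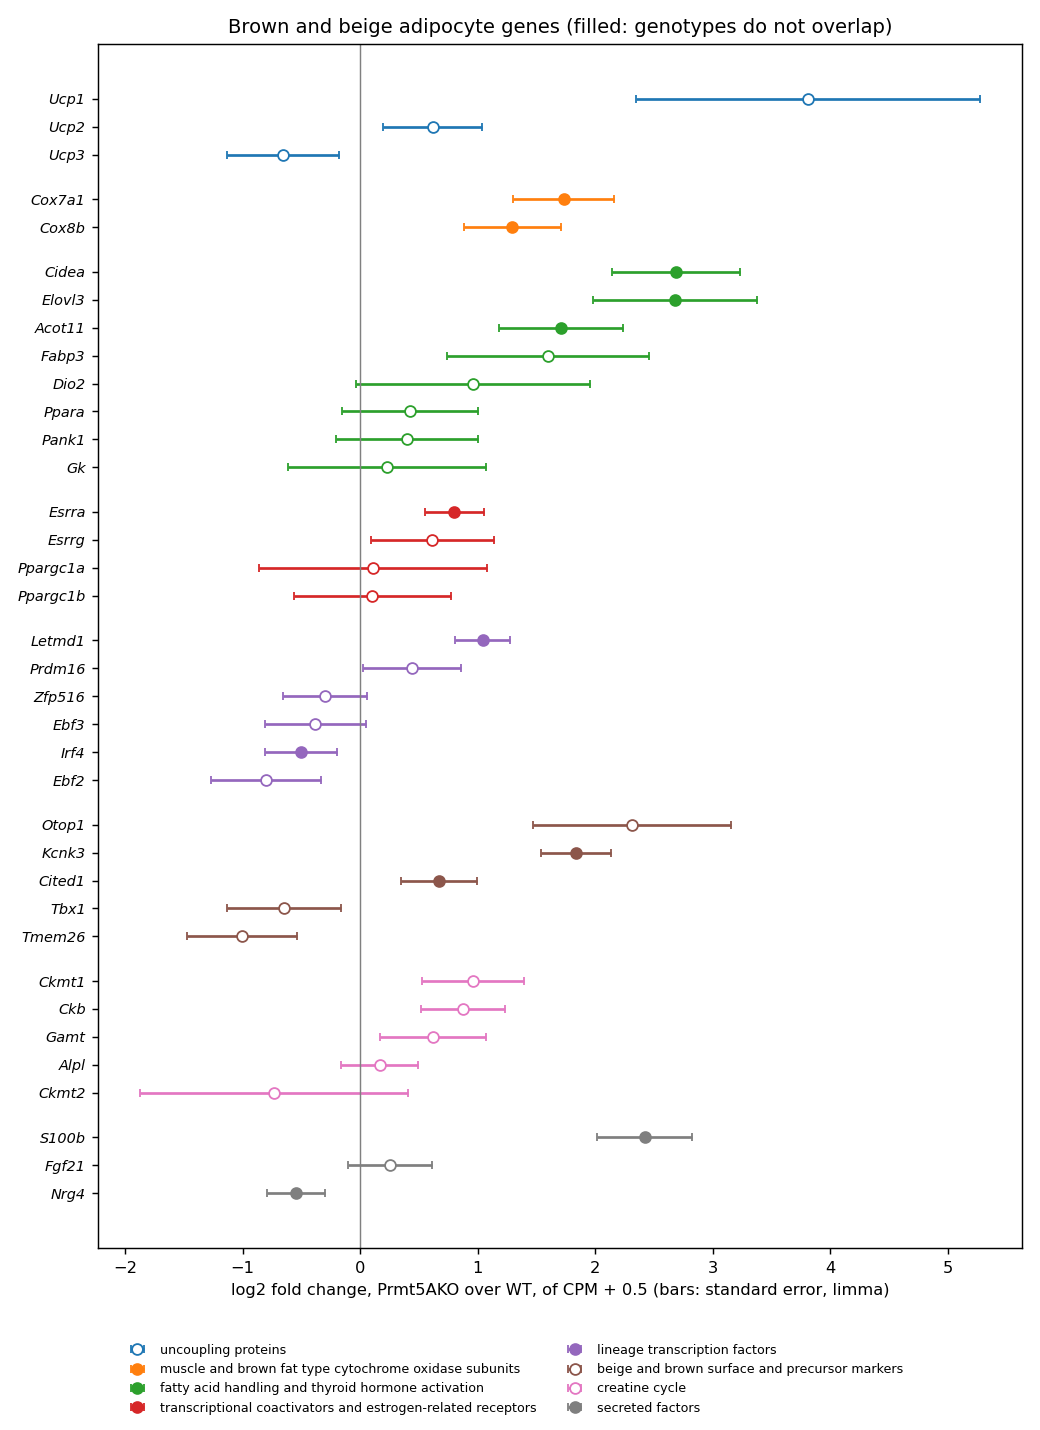
Log2 fold change (horizontal axis, Prmt5AKO over WT, of CPM + 0.5) with its limma standard error for the 36 members, coloured by role and sorted within it; filled points are members whose genotypes do not overlap. *Ucp1* has the highest value, 3.81, with the widest error, 1.46, and the error bars of *Ppargc1a*, *Ppargc1b*, *Gk*, *Pank1* and *Ckmt2*, among others, span 0.

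The coactivators that drive mitochondrial and thermogenic genes had no such separation. *Ppargc1a*, which is induced by cold and coactivates many nuclear receptors, was at 14.1, 0.669 and 3.49 CPM in Prmt5AKO and at 5.63, 0.795 and 6.33 CPM in WT, so that the WT range lay within that of Prmt5AKO. Its log2 fold change of 0.11 (standard error 0.97) was -0.81 without Prmt5AKO replicate 1 and -0.66 without WT replicate 2. Its relative *Ppargc1b* was at 15.8, 3.83 and 2.41 CPM in Prmt5AKO and at 8.49, 2.88 and 4.95 CPM in WT (log2 fold change 0.11, standard error 0.67). *Esrra*, an estrogen-related receptor of oxidative metabolism and a partner of these coactivators, was at 82.1, 91.6 and 115 CPM in Prmt5AKO and at 49.0, 62.1 and 53.1 CPM in WT. The genotypes did not overlap, and the log2 fold change was 0.80 (standard error 0.25, limma adjusted p = 0.435). *Esrrg* was low, at 0.425 to 2.74 CPM in Prmt5AKO and 0.189 to 0.853 CPM in WT.

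The group of lineage factors of brown and beige cells also held *Letmd1*. Apart from *Letmd1*, only *Prdm16* in this group had a positive log2 fold change. *Letmd1*, a mitochondrial inner membrane protein needed for brown fat function in mice, was at 127, 134 and 138 CPM in Prmt5AKO and at 55.8, 72.8 and 65.4 CPM in WT. The genotypes lay far apart for their spread, with means of 133 ± 5.33 CPM and 64.7 ± 8.49 CPM (log2 fold change 1.04, standard error 0.24, limma adjusted p = 0.318; DESeq2 adjusted p = 0.0077). *Prdm16*, the cofactor that specifies brown and beige adipocytes, was at 9.42, 7.49 and 10.2 CPM in Prmt5AKO and at 11.7, 4.09 and 5.55 CPM in WT. Its log2 fold change was 0.44 (standard error 0.42), so a difference of that size could not be told from the spread. *Irf4*, a partner of the *Ppargc1a* product in brown fat that is also a lymphocyte factor, was at 9.88, 12.4 and 13.1 CPM in Prmt5AKO and at 15.8, 13.4 and 22.3 CPM in WT, with every Prmt5AKO library below every WT library (log2 fold change -0.51, standard error 0.31). *Ebf2*, which marks precursors of brown adipocytes, was at 27.6, 10.48 and 12.2 CPM in Prmt5AKO and at 43.7, 17.6 and 25.5 CPM in WT, with overlap (log2 fold change -0.80, standard error 0.46). *Ebf3* and *Zfp516*, a cold-inducible activator of *Ucp1*, had log2 fold changes of -0.38 and -0.30 (standard errors 0.43 and 0.36). Beside *Ebf2*, the 13 fibroblast and progenitor markers in the table summed to 3974 to 4685 CPM in Prmt5AKO and to 5263 to 7703 CPM in WT, with *Dpp4*, *Dcn*, *Pi16* and *Pdgfra* at an unadjusted p under 0.05 in the lower direction. The part of that difference in the *Ebf2* values was not tested.

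The surface and precursor markers split. *Kcnk3*, a potassium leak channel of brown adipocytes, had the smallest p-value of the 36, at 130, 197 and 239 CPM in Prmt5AKO and 43.7, 54.7 and 55.2 CPM in WT. Its means were 189 ± 54.7 CPM and 51.2 ± 6.50 CPM, a ratio of 3.69 (log2 fold change 1.84, standard error 0.30, limma adjusted p = 0.174; DESeq2 adjusted p = 3.11e-05). Without Prmt5AKO replicate 1, limma called it at a log2 fold change of 2.08, as it did 0.521% of all genes, 0.335% of them higher and 0.186% lower. *Kcnk3* likewise shares exonic sequence with *Gm9899* on the opposite strand. Such overlaps were also annotated for other members, among them *Nrg4* (368 bases with *Fbxo22*), *Esrra*, *Elovl3*, *Ebf2*, *Ebf3*, *Ucp2* and *Fabp3*. The same limit holds for reads from their shared bases, which were few in some, 10 of 1975 in *Elovl3* and 305 of 6989 in *Ucp2*. *Otop1*, a proton channel found in brown fat, was at 32.9, 11.1 and 5.01 CPM in Prmt5AKO and at 2.304, 0.416 and 6.23 CPM in WT, with overlap between Prmt5AKO replicate 3 and WT replicate 3 (log2 fold change 2.31, standard error 0.84, limma adjusted p = 0.4996).

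The markers first described for beige cells were low. *Tmem26* was at 0.557, 0.981 and 0.567 CPM in Prmt5AKO and at 3.46, 2.23 and 0.747 CPM in WT (log2 fold change -1.005, standard error 0.47). *Tbx1*, a transcription factor, was at 0.232, 0.580 and 0.142 CPM in Prmt5AKO and at 1.32, 0.114 and 1.25 CPM in WT, from 3 to 35 reads a library. *Cited1*, a transcriptional coregulator, was at 1.25, 0.892 and 1.61 CPM in Prmt5AKO and at 0.469, 0.719 and 0.569 CPM in WT, without overlap (log2 fold change 0.67, standard error 0.32). These 3 markers thus did not share a direction.

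The creatine cycle burns ATP in thermogenic fat without UCP1, as creatine is phosphorylated and dephosphorylated in turn. *Ckb*, the brain-type creatine kinase of that cycle, was at 112, 213 and 256 CPM in Prmt5AKO and at 86.4, 126 and 89.9 CPM in WT. Prmt5AKO replicate 1 lay below WT replicate 2, and the log2 fold change was 0.88 (standard error 0.36, limma adjusted p = 0.554). *Alpl*, the phosphatase proposed to dephosphorylate phosphocreatine in mouse fat, was at 12.4, 12.8 and 8.36 CPM in Prmt5AKO and at 10.03, 12.1 and 7.54 CPM in WT (log2 fold change 0.17, standard error 0.33). *Ckmt1*, a mitochondrial creatine kinase, was low, at 0.649, 1.29 and 2.41 CPM in Prmt5AKO and at 0.171, 0.530 and 0.676 CPM in WT. *Ckmt2*, the mitochondrial creatine kinase of striated muscle, was at 1.35, 0.892 and 5.15 CPM in Prmt5AKO and at 7.08, 0.0757 and 14.7 CPM in WT. It was low and high in the libraries where *Cox6a2* and the muscle markers were, and its log2 fold change of -0.73 (standard error 1.14) was 0.22 without WT replicate 3. *Gamt*, which makes creatine, was at 36.3, 90.1 and 75.7 CPM in Prmt5AKO and at 25.2, 64.7 and 41.3 CPM in WT, with overlap.

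Among secreted factors, *S100b*, a trophic protein by which brown fat attracts sympathetic nerves in mice, was at 29.3, 42.9 and 15.6 CPM in Prmt5AKO and at 4.69, 3.82 and 5.55 CPM in WT. The means were 29.3 ± 13.6 CPM and 4.69 ± 0.864 CPM, a ratio of 6.24 (log2 fold change 2.42, standard error 0.41, limma adjusted p = 0.195; DESeq2 adjusted p = 2.85e-06). *S100b* is also a marker of Schwann cells. The 11 Schwann cell markers in the table summed to 247, 299 and 304 CPM in Prmt5AKO and to 262, 297 and 284 CPM in WT, none at an unadjusted p under 0.05. *Nrg4*, a growth factor released by brown fat, was at 48.8, 52.9 and 50.8 CPM in Prmt5AKO and at 79.5, 61.1 and 84.5 CPM in WT, with every Prmt5AKO library below every WT library (log2 fold change -0.55, standard error 0.24, limma adjusted p = 0.580). *Fgf21*, a metabolic hormone, held 5 to 18 reads a library, and a difference was not detectable at this depth.

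The members did not share 1 order of libraries. In 12 of the 36 the highest of the 6 values was that of Prmt5AKO replicate 1, against 18.3% of all genes, and these included *Ucp1*, *Elovl3*, *Otop1*, *Dio2*, *Gk*, *Ppargc1a* and *Ppargc1b*. In 7 members, among them *Kcnk3*, *Letmd1*, *Esrra* and *Ckb*, Prmt5AKO replicate 3 was the highest, against 24.3% of all genes. In 7 others, *Cidea*, *Cox7a1*, *Cox8b* and *S100b* among them, it was Prmt5AKO replicate 2, against 14.8%. WT replicate 2 had the lowest value in 14 of the 36, against 7.42% of all genes, and the highest in none, against 7.69%. Nuclear-retained RNAs and mitochondrial transcripts also set these libraries apart. The 7 nuclear-retained RNAs in the table, *Malat1* and *Neat1* among them, summed to 2162, 193 and 194 CPM in Prmt5AKO and to 2228, 796 and 1765 CPM in WT. The 13 mitochondrially encoded genes summed to 44782, 19044 and 14373 CPM in Prmt5AKO and to 44715, 28693 and 60144 CPM in WT. *Ppargc1a*, *Ppargc1b* and *Gk* were, like both sums, lower in Prmt5AKO replicates 2 and 3 than in replicate 1 and than in WT replicates 1 and 3. So were *Pank1*, *Ucp3*, *Ebf2*, *Ebf3* and *Zfp516*, all but *Pank1* with negative log2 fold changes. The part of these library differences in the members' values was not tested.

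A further list held 49 other genes linked to the brown and beige programme, white fat markers and opposing factors included, of which 44 were in the table. Its counts therefore mix genes of opposite roles. Of these 24 had positive log2 fold changes (median 0.04), with 5 higher and 3 lower at an unadjusted p under 0.05. The 3 with the smallest p were *Pm20d1*, *Hoxc8* and *Slc7a10*. *Pm20d1*, an enzyme that makes uncoupling N-acyl amino acids, was at 12.9 ± 3.61 CPM in Prmt5AKO and 5.40 ± 0.209 CPM in WT (log2 fold change 1.15, standard error 0.31, limma adjusted p = 0.382). *Hoxc8*, a positional homeobox gene of white fat that opposes the brown programme in mice, was at 92.0 ± 13.7 CPM and 52.8 ± 7.03 CPM (log2 fold change 0.79, standard error 0.25). *Slc7a10*, an amino acid transporter used as a marker of white adipocytes, was at 58.5 ± 27.6 CPM in Prmt5AKO and 145 ± 66.9 CPM in WT (log2 fold change -1.30, standard error 0.43).

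Fuel supply and adrenergic input were read from 3 lists. Of 19 genes of mitochondrial fatty acid oxidation, 14 had positive log2 fold changes (median 0.30), with 2 at an unadjusted p under 0.05, *Acaa2*, the last thiolase of the pathway, at 324 ± 74.0 CPM in Prmt5AKO and 169 ± 41.9 CPM in WT, and *Etfb*, an electron carrier subunit. Of 20 genes of adrenergic and cAMP signalling, 8 were positive (median -0.12), with *Prkaca*, the catalytic subunit of protein kinase A, higher at that level. *Adrb3*, the adipocyte beta-adrenergic receptor, was at 492, 602 and 603 CPM in Prmt5AKO and at 407, 657 and 433 CPM in WT, with overlap. Of 18 genes of the calcium and lipid futile cycles, 10 were positive (median 0.13), and *Gpd1*, which makes glycerol 3-phosphate, was the 1 at an unadjusted p under 0.05, at 1375 ± 272 CPM in Prmt5AKO and 688 ± 130 CPM in WT. Of 16 factors of mitochondrial biogenesis in the table, 5 were positive (median -0.42), with *Polrmt*, the mitochondrial RNA polymerase, higher and *Nfe2l2*, an antioxidant regulator, lower at that level. Limma called none of the genes of these lists.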

How the data were processed

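The labels credit the submitters' processing to FastQC 0.11.9, Trim Galore 0.6.0, STAR 2.7.10a on GRCm38 and featureCounts of Subread 2.0.1, and the study's methods add a filter for uniquely mapped pairs and edgeR. The authors deposited 1 signal column per library, CPM on effective library sizes with 1 scaling factor per library (0.898 to 1.15). In every library 100% of values were whole multiples of 1 read, within 0.05 of a read. The study mentions a batch correction but names no batch, and none was applied here. The deposited fold changes, p-values and enrichment tables were not used.

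The filter required 0.5 CPM or more in 3 or more libraries. Genotype was the only term in limma 3.58.1 (eBayes with trend) on log2(CPM + 0.5). The recovered reads went to limma-voom, edgeR 4.0.16 and DESeq2 1.42.0 as alternatives, under R 4.3.3. Members and lists were chosen with earlier results of these data known. Library values are written out for members at an unadjusted p under 0.05 or without overlap, for 11 defining genes and for others where the values bear on the text. Of each other list at most 3 genes with the smallest p are named, with exceptions chosen after their values were seen (*Pdgfra*, *Malat1*, *Myh4*, *Ckm*, *Acta1*, *Adipoq*, *Gpnmb*). Exon lengths, of all annotated exons of a gene merged, and overlaps come from GENCODE M21 on GRCm38, not the release the authors counted with.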

Additional observations from a re-analysis of the deposited data

How the results depend on the processing

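The members' direction was steadier than their tests. Genes called by limma were 0 under every other pseudocount, filter, scaling, cutoff and eBayes setting and with limma-voom and edgeR's quasi-likelihood test, and members called were then 0 too. The likelihood ratio test of edgeR called 162 genes and 3 members, and DESeq2 301 genes and 6 members. The replicate numbers were not taken to pair the libraries. Deviations of same-numbered libraries correlated at 0.68, 0.57 and -0.11 over genes, and not every library correlated best with its own number. The deviations within a genotype are not independent, so these correlations cannot show whether the numbers mark a batch. The study reported genes called by edgeR at the same cutoffs after a batch correction, *Prmt5* among the lower ones. The counts without a block are therefore not the study's counts. Whether its correction used the replicate numbers is not stated. With the replicate block, limma called 129 of 16109 genes (88 higher) and 3 members. The quasi-likelihood test of edgeR called 58 genes (44 higher) and 2 members. Its likelihood ratio test called 686 genes (359 higher) and 9 members, and also *Prmt5* (log2 fold change -1.08). Those 9 were *Acot11*, *Cidea*, *Cox7a1*, *Cox8b*, *Elovl3*, *Kcnk3*, *Letmd1*, *Otop1* and *S100b*, all higher in Prmt5AKO. In that fit 20.1% of all genes had an unadjusted p under 0.05.

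Leaving out each library in turn, limma called 0 to 84 genes and 0 to 1 members, found 8 to 15 members at an unadjusted p under 0.05 (8 without Prmt5AKO replicate 2, with 4.56% of all genes, and 15 without Prmt5AKO replicate 1, with 35.3%) and gave a members' median of 0.31 to 0.69. Non-overlapping members numbered 13 to 20, but without Prmt5AKO replicate 1, where there were 20, 56.8% of all genes did not overlap. For the other libraries left out, the share of all genes was not counted. Fewer libraries make non-overlap likelier by chance, so these counts, from 13 upward, cannot be set beside the count from all libraries. With each library left out in turn, the log2 fold change ranged from -0.015 to 1.75 for *Dio2*, -0.12 to 0.99 for *Ppara*, -0.28 to 0.80 for *Pank1* and -0.76 to 0.85 for *Gk*. It ranged from -0.81 to 1.01 for *Ppargc1a*, -0.63 to 0.62 for *Ppargc1b*, -2.14 to 0.22 for *Ckmt2* and -0.0040 to 0.36 for *Alpl*. The other 28 members kept their direction under every setting run. Few reads limit the precision of *Tbx1*, *Fgf21* and *Ucp1* in WT replicate 2.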

Other observations

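Of 20 genes listed as repressors of the brown programme, 9 had positive log2 fold changes (median -0.07), and *Gdf3* was the 1 at an unadjusted p under 0.05. *Gdf3*, a ligand of the TGF-beta superfamily made by adipose tissue macrophages, was at 4.96, 2.90 and 3.59 CPM in Prmt5AKO and at 0.171, 0.227 and 0.640 CPM in WT, without overlap (log2 fold change 2.36, standard error 0.37, limma adjusted p = 0.165). Of the 15 macrophage markers, 11 were positive (median 0.38), with *Cd68*, *Itgax* and *Gpnmb* higher and *Cd163* lower at an unadjusted p under 0.05. *Cd163*, a scavenger receptor of resident macrophages, was at 53.1 ± 14.6 CPM in Prmt5AKO and 144 ± 34.2 CPM in WT.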
